A study of Mus musculus with 48 samples.

Results

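A small group of genes for transcription factors of bone and blood was followed through the tibiae of caloric-restricted and freely fed mice. Its members were Cbfb, Runx1, Runx2, Runx3, Dlx5 and Sp7, which make up 6 of the 29801 genes in the deposited matrix and were found by gene name. The group was chosen on the measured values of these same 12 mice. Its levels and differences are therefore a description, and nothing is concluded from a test of them. RNA came from the whole tibia, marrow included, of male C57BL/6J mice, with 3 mice in each of 4 groups. The groups were aged mice on caloric restriction (aged CR), aged mice fed ad libitum (aged AL), young mice on CR (young CR) and young mice fed ad libitum (young AL). When CR began, aged mice were 15 to 18 months old and young mice 10 weeks old by the design text, though the study's methods give a range around that age for the young mice. CR lasted 8 weeks, so the tibiae were taken from older mice than these ages state. The food was cut stepwise, with a reduction of 10% at first, of 20% in the week after and of 40% for the rest of the time. CR mice ate a chow with added micronutrients and AL mice the standard chow, so less food and other food cannot be told apart.

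Runx proteins bind DNA through their Runt domain, and Cbfb is the partner that binds no DNA itself but strengthens the grip of every Runx protein. Runx1 is known for making blood stem cells and for guiding platelet and lymphocyte development. Runx2 is the master regulator that commits mesenchymal cells to the osteoblast lineage and drives hypertrophy in growth plate cartilage, and Runx3 is known from killer T cells and also acts in cartilage. In osteoblast precursors, BMP signals induce Dlx5, a homeodomain factor upstream of Runx2 and Sp7. Sp7, also called osterix, is a zinc finger factor that acts downstream of Runx2, and mice without it form no bone.

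In this tissue Cbfb was the most abundant of the 6 genes and the one whose CR and AL mice were apart at both ages. Its level was 17.7 ± 0.35 FPKM in aged CR mice and 23.4 ± 0.98 FPKM in aged AL mice (SD, n = 3 each), and 19.8 ± 1.5 FPKM in young CR mice and 23.9 ± 1.7 FPKM in young AL mice. FPKM counts sequenced fragments scaled by transcript length and by the mapped reads of the library, so levels of different genes can be set side by side. The Runx2 levels of CR and AL mice were apart in young mice, with CR lower, and overlapped in aged mice. Runx1 differed little, Runx3 did not separate any pair of groups, and Dlx5 and Sp7 varied widely between mice of the same group. The mean over the 12 mice was 21.2 FPKM for Cbfb, 7.15 for Sp7, 6.49 for Runx1, 4.19 for Runx2, 3.07 for Runx3 and 2.37 for Dlx5. All 6 members passed the filter of a mean of at least 1 FPKM, as did 13590 genes in all. In bulk tissue, fewer cells of a type and less RNA per cell cannot be told apart.

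**Figure D1:**
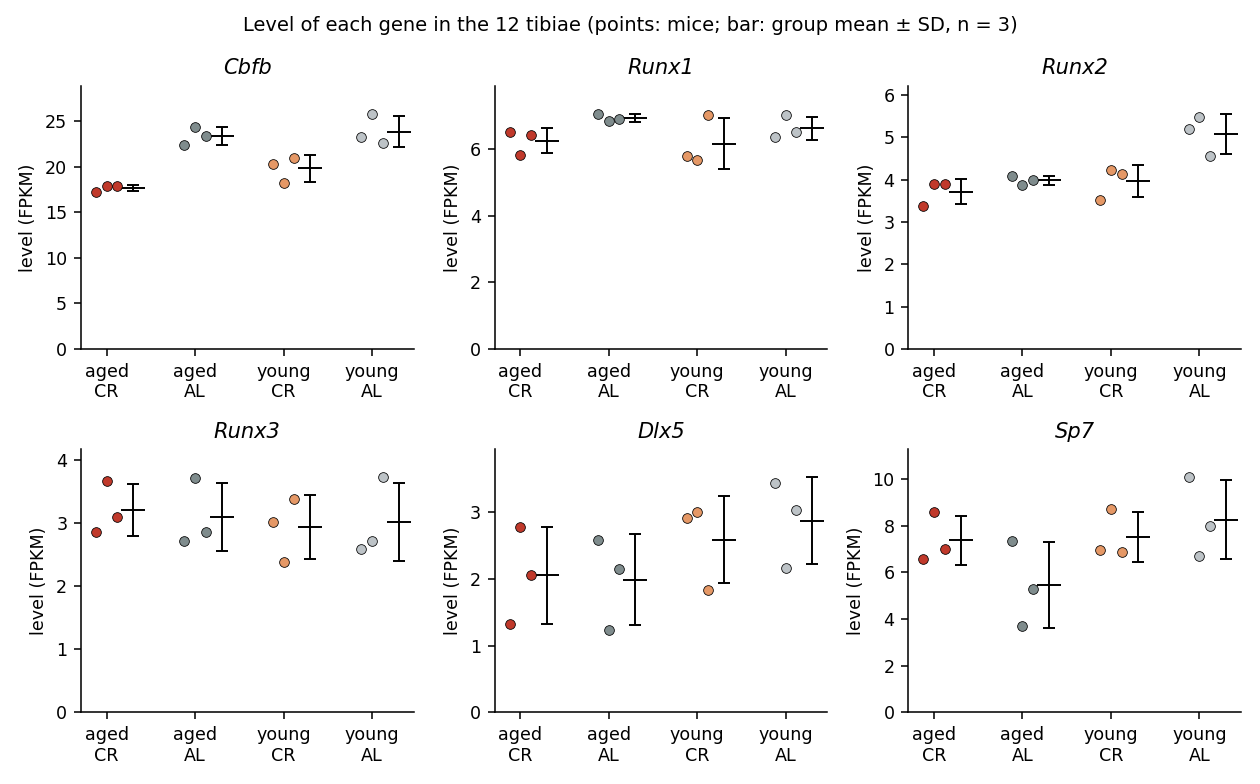
Level (FPKM, linear axis from 0) of each gene in each of the 12 tibiae, with points for mice and a bar for the group mean ± SD (n = 3). The Cbfb points of both CR groups lie below those of the AL groups of the same age, and Runx2 is highest in young AL mice.

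The start regions of the family are shown because some of them hold matches to the core site that Runx proteins bind. RefSeq promoter windows on GRCm38, from 250 bases before to 50 bases after an annotated start, matched 4 of the 6 members in 6 windows, 2 each for Runx1 and Runx3. Sp7 and Dlx5 had no window in the table. The windows were searched on both strands for TGTGGT, the core Runx site, whose reverse complement reads ACCACA. The distal windows of Runx1 and Runx3 and the window of Runx2 share a stretch of 18 bases with 2 copies of ACCACA in tandem, given in capitals in the 30-base runs that follow.
Runx1 distal (chr16:92826027-92826056, minus strand): ctcataaaCAACCACAGAACCACAAGttgg
Runx2 (chr17:44814585-44814614, minus strand): ctcacaaaCAACCACAGAACCACAAGtgcg
Runx3 distal (chr4:135120501-135120530, plus strand): tggtccctCAACCACAGAACCACAAGgcca
The stretch runs from base 27 to 44 after the start in Runx1, from base 22 to 39 in Runx2 and from base 136 to 119 before the start in Runx3, counting the start as base 1. Of 32851 windows it occurs in 4, or 0.0122%, and the one outside the family is that of Gm16225. Whether the Gm16225 window covers the same genomic bases as a Runx window was not checked. A single TGTGGT on either strand is far more common and occurs in 16.8% of all windows.

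The Cbfb window has a different make-up. It has no TGTGGT on either strand and 4 copies of GGGCGG, the box bound by SP and KLF factors. GGGCGG occurs on either strand in 35.7% of all windows. The 250 bases before the Cbfb start (chr8:105170424-105170673, plus strand) are given with GGGCGG in capitals, since Cbfb is the member whose level separated CR from AL mice at both ages.
Cbfb promoter: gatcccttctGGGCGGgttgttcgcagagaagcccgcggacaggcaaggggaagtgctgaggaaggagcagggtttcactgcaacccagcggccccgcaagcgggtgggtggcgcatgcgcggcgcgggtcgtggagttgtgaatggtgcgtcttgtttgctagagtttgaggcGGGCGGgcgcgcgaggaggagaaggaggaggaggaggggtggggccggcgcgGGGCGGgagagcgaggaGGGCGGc
The 250 bases before the Runx2 start (chr17:44814628-44814877, minus strand) hold 1 further ACCACA, in capitals, 80 to 75 bases before the start.
Runx2 promoter: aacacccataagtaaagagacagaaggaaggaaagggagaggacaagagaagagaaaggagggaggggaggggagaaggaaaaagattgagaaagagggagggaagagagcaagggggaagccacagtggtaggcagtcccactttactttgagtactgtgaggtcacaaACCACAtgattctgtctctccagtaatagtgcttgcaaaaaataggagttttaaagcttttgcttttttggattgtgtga
TAATTA, the core site of Dlx homeodomain factors, occurs in none of the 6 member windows and in 5.29% of all windows. The proximal window of Runx1 holds none of the 3 motifs, and that of Runx3 holds GGGCGG 3 times. A match is a run of letters, not a measured binding site.

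**Figure D2:**
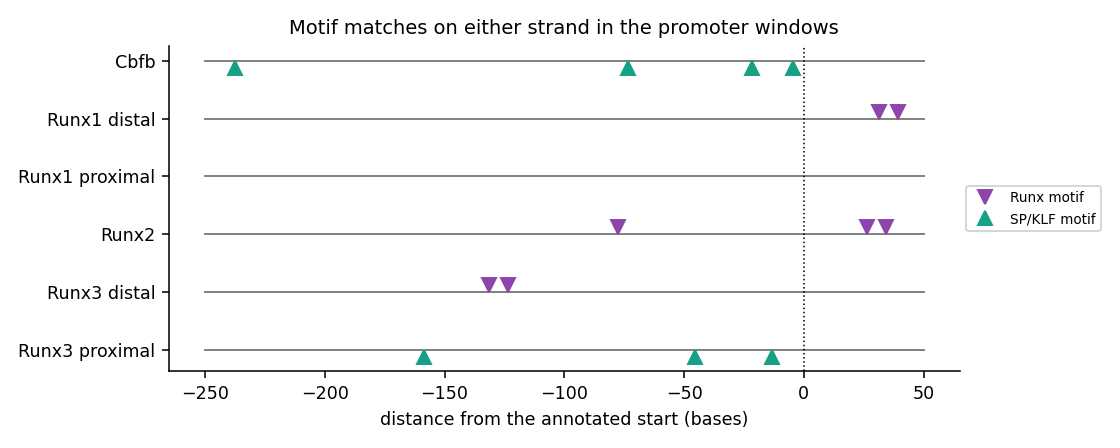
Matches to the Runx core TGTGGT (downward triangles) and to the SP/KLF box GGGCGG (upward triangles) on either strand of the 6 promoter windows, by distance in bases from the annotated start. The paired Runx matches of Runx1 and Runx2 lie just after the start and those of Runx3 before it, while Cbfb has GGGCGG only.

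Levels were compared on the log2(FPKM + 1) scale with a limma model of the 4 group means over all 13590 genes, and a gene was called where its Benjamini-Hochberg adjusted p was under 0.05. A difference on this scale understates the change of a gene with a low level. In aged mice 0% of genes were called between CR and AL (0 genes, with 1049 at an unadjusted p under 0.05), and in young mice 0.0662%. An unequal-variance test on FPKM also called 0 genes in aged mice, with 487 at an unadjusted p under 0.05. Over both ages 0.258% of genes were called for CR, for aged against young mice over both diets 0.758%, and for the interaction of diet and age 0% (0 genes, with 575 at an unadjusted p under 0.05). Of the 6 members, 1 was among the called genes over both ages and 0 in the other comparisons. The call over both ages was kept under 4 of 16 alternatives. The fit without a filter is one of the 16 and did not keep it (limma adjusted p = 0.068). Nothing is read from these counts, since the members were picked with these results known. Such counts depended on single mice. For CR over both ages 35 genes were called, but 223 when aged CR mouse 5 was left out and 143 when aged AL mouse 14 was. Leaving out aged CR mouse 6 or 7 gave 11 or 8, and young CR mouse 1, 2 or 3 gave 12, 9 or 16. Leaving out young AL mouse 9, 10 or 11 gave 11, 9 or 14, and aged AL mouse 13 or 15 gave 24 or 26.

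Cbfb, the shared partner subunit, lies on chr8:105170674-105217989 (plus strand, GENCODE M21, GRCm38). It read 17.3, 17.9 and 18.0 FPKM in the aged CR mice, against 22.4, 24.4 and 23.4 FPKM in the aged AL mice. In young mice it read 20.4, 18.2 and 21.0 FPKM under CR, against 23.3, 25.8 and 22.6 FPKM under AL. Every CR mouse was thus below every AL mouse of its age, by a gap of 4.46 FPKM between the nearest aged mice and 1.65 FPKM between the nearest young mice. Separation of this kind was found in 5.33% of tested genes in aged mice, in 9.38% in young mice, and in 1.05% at both ages. The mean of aged CR mice was 0.757 of the aged AL mean, and that of young CR mice 0.83 of the young AL mean. The log2 difference was -0.38 (limma SE 0.08) in aged and -0.26 (SE 0.08) in young mice. Over both ages it was -0.32 (SE 0.05), lower than in all but 3.19% of tested genes. It lay between -0.34 and -0.29 when any 1 mouse was left out.

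The order of the groups for Cbfb was aged CR, young CR, aged AL and young AL from low to high. The AL groups overlapped, and the levels of aged CR and young CR mice were apart by 0.244 FPKM, with the aged mice lower. Every aged CR mouse was below every young CR mouse in 10.6% of all tested genes. The difference between ages over both diets was small, at -0.09 (SE 0.05), and the interaction was -0.13 (SE 0.11). Spread between mice was least in aged CR, where the coefficient of variation was 1.98%, against 4.21% in aged AL mice.

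Runx1, the blood-lineage member, lies on chr16:92601466-92826149 (minus strand). It read 6.51, 5.82 and 6.43 FPKM in aged CR mice, against 7.05, 6.84 and 6.90 FPKM in aged AL mice. Young mice had 5.78, 5.67 and 7.03 FPKM under CR, against 6.35, 7.02 and 6.50 FPKM under AL. The aged groups did not overlap, with a gap of 0.33 FPKM, while in young mice CR mouse 3 exceeded all 3 AL mice. Among aged mice, every CR mouse was below every AL mouse in 5.33% of all tested genes. The log2 difference was -0.13 (SE 0.09) in aged and -0.09 (SE 0.09) in young mice. From low to high the order was young CR, aged CR, young AL and aged AL, with no neighbours apart, and the difference between ages was 0.04 (SE 0.06).

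Runx2, the osteoblast master regulator, lies on chr17:44495987-44814797 (minus strand). It read 3.38, 3.88 and 3.89 FPKM in aged CR mice, against 4.09, 3.87 and 3.99 FPKM in aged AL mice. In young mice it read 3.53, 4.23 and 4.13 FPKM under CR, against 5.20, 5.47 and 4.56 FPKM under AL. Young AL mice stood alone at the top, since each was above all 3 young CR mice and all 3 aged AL mice, while the aged diet groups overlapped. Every aged AL mouse was below every young AL mouse in 7.65% of all tested genes, and every young CR mouse below every young AL mouse in 9.38%. The log2 difference for CR was -0.08 (SE 0.09) in aged mice and -0.29 (SE 0.09) in young mice. The difference between these effects was 0.21 (SE 0.13), and over both ages CR gave -0.19 (SE 0.06). For aged against young mice over both diets it was -0.18 (SE 0.06). The lower 3 groups, with means of 3.72 FPKM in aged CR, 3.98 in aged AL and 3.97 in young CR mice, overlapped with one another.

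Runx3, the member known from killer T cells, lies on chr4:135120652-135177990 (plus strand). It read 2.87, 3.67 and 3.10 FPKM in aged CR mice, against 2.72, 3.73 and 2.86 FPKM in aged AL mice. Young mice had 3.02, 2.39 and 3.39 FPKM under CR, against 2.6, 2.72 and 3.73 FPKM under AL. No pair of groups was apart, and the difference for CR over both ages was 0.01 (SE 0.10), with an age difference of 0.07 (SE 0.10). The SD between mice of a group was 0.18 on the log2 scale, larger than every difference of this gene.

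**Figure D3:**
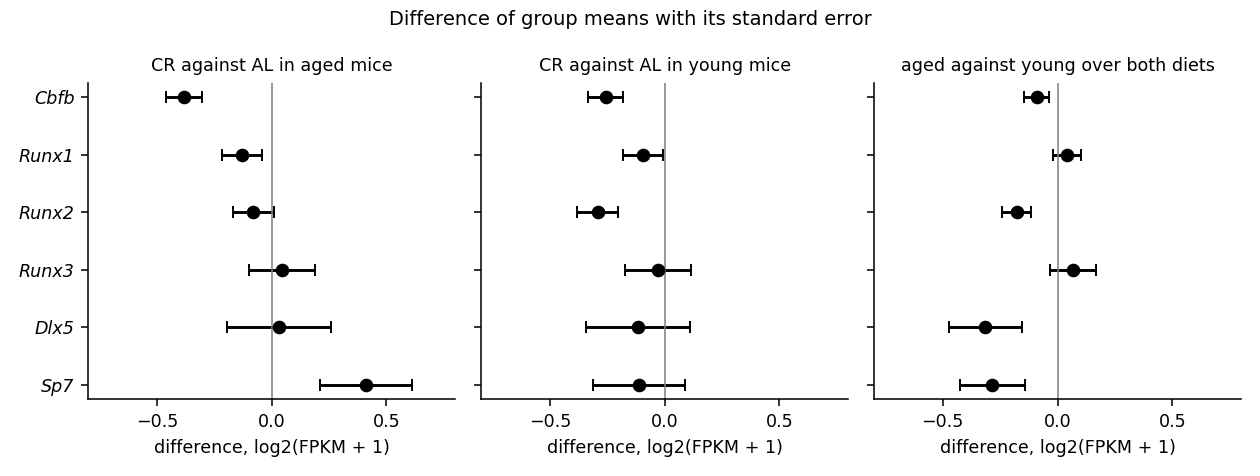
Difference of group means on the log2(FPKM + 1) scale with the limma standard error for each gene, for CR against AL in aged mice, CR against AL in young mice, and aged against young mice over both diets. Cbfb lies below 0 for CR at both ages, Runx2 below 0 for CR in young mice, and Dlx5 and Sp7 have the widest errors.

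Since Cbfb pairs with all 3 Runx proteins, its level was also set against their summed level. The Runx sum was 13.2 ± 0.37 FPKM in aged CR and 14 ± 0.37 FPKM in aged AL mice, and 13.1 ± 1.3 FPKM in young CR and 14.7 ± 0.53 FPKM in young AL mice. Cbfb per summed Runx was 1.36, 1.33 and 1.34 in aged CR mice, against 1.62, 1.69 and 1.70 in aged AL mice. In young mice it was 1.65, 1.48 and 1.44 under CR, against 1.64, 1.70 and 1.53 under AL. All 3 aged CR mice were therefore below the other 9 mice, whereas the young diet groups overlapped. The Cbfb level alone already placed these 3 mice below the other 9, so the ratio in part restates it. These are transcript ratios and do not measure the amount of protein complex.

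Runx1 was the largest part of the Runx sum in every mouse. Runx1 gave 47.5% of the sum in aged CR, 49.5% in aged AL, 47.1% in young CR and 45.0% in young AL mice. The AL groups were apart, at 47.4% to 50.9% in aged AL against 43.9% to 46.1% in young AL mice. Runx2 per Runx1 was 0.52, 0.667 and 0.605 in aged CR mice, against 0.581, 0.566 and 0.578 in aged AL mice. Young mice had a ratio of 0.61, 0.747 and 0.588 under CR, against 0.82, 0.78 and 0.702 under AL. Every aged mouse of either diet was below every young AL mouse in this ratio, whereas young CR mouse 2 lay above the lowest young AL mouse.

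**Figure D4:**
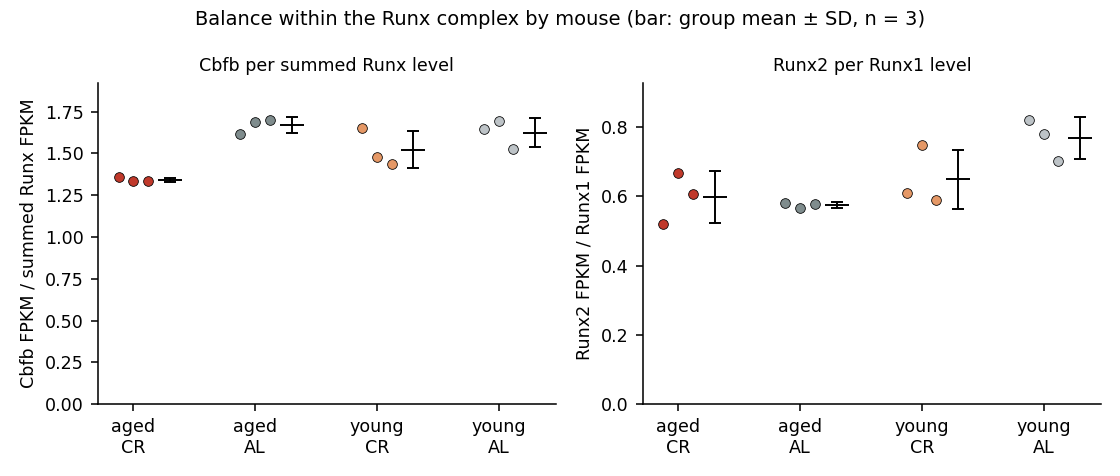
Cbfb FPKM divided by the summed FPKM of Runx1, Runx2 and Runx3 (left) and Runx2 FPKM divided by Runx1 FPKM (right) in each mouse, with the group mean ± SD (n = 3). The aged CR mice lie between 1.33 and 1.36 on the left, below the other 9 mice.

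Dlx5, the BMP-induced homeodomain factor, lies on chr6:6877805-6882085 (minus strand). It read 1.32, 2.78 and 2.06 FPKM in aged CR mice, against 2.58, 1.24 and 2.15 FPKM in aged AL mice. In young mice it read 2.92, 3.0 and 1.83 FPKM under CR, against 3.43, 2.16 and 3.02 FPKM under AL. The groups overlapped in every pair, with aged CR mouse 5 and aged AL mouse 14 lowest. The difference for CR was 0.03 (SE 0.23) in aged and -0.11 (SE 0.23) in young mice. For aged against young mice it was -0.31 (SE 0.16), and it was -0.22 when either of these mice was left out.

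Sp7, the zinc finger factor of committed osteoblasts, lies on chr15:102356606-102367182 (minus strand). It read 6.57, 8.57 and 7.02 FPKM in aged CR mice, against 7.37, 3.68 and 5.30 FPKM in aged AL mice. Young mice had 6.97, 8.73 and 6.85 FPKM under CR, against 10.1, 6.70 and 7.99 FPKM under AL. Both pairs of diet groups overlapped, and aged AL mouse 14 had the lowest value of all. The difference for CR was 0.41 (SE 0.20) in aged and -0.11 (SE 0.20) in young mice, with an interaction of 0.52 (SE 0.28). Each depended on single aged AL mice. Without mouse 14 the aged difference was 0.20 (SE 0.18) and the interaction 0.31 (SE 0.24), and without mouse 13 they were 0.62 (SE 0.18) and 0.73 (SE 0.25). Sp7 per Runx2 was 1.94, 2.21 and 1.81 in aged CR mice, against 1.80, 0.951 and 1.33 in aged AL mice. It lay between 1.66 and 2.06 in young CR mice, against 1.22 and 1.94 in young AL mice.

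Dlx5 and Sp7 varied together between mice. After the group means were taken off, Pearson's r between them was 0.85, and over the 12 mice as they stand it was 0.80 (Spearman's rho 0.84). Without the 2 mice farthest from the median of Dlx5 it was 0.76. This was the highest r among the 15 pairs of members. Cbfb went the other way from Sp7, with r = -0.66 after the group means were taken off and -0.35 over the 12 mice. Cbfb and Runx1 had r = 0.52 and 0.63 on these scales, and Cbfb and Runx2 0.16 and 0.63. These are descriptions over mice that share a tissue mix, and no p is given.

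Markers of osteoblasts, and of some other cell types, varied with Dlx5 and Sp7 between mice. The summed level of 8 osteoblast markers (Bglap, Ibsp, Col1a1, Alpl, Spp1, Col11a2, Pth1r and Smpd3) was 821, 1140 and 1029 FPKM in aged CR mice, against 1513, 569 and 1111 FPKM in aged AL mice. It was 975, 1176 and 1138 FPKM in young CR mice, against 1889, 1335 and 1492 FPKM in young AL mice. Aged AL mouse 14 had the lowest and young AL mouse 9 the highest value of both Sp7 and the marker sum. For CR in aged mice 1 of the 8 markers was below 0, with a median log2 difference of 0.30. In young mice 5 were below 0, with a median of -0.15. By limma 0 were called for CR at either age, with 4 in aged and 0 in young mice at an unadjusted p under 0.05. With age all 8 markers were below 0 with a median of -0.45, and Smpd3, a sphingomyelinase gene needed for mineralization, was called (-0.61, limma adjusted p = 0.0285). With the marker sum, on log2 values, Sp7 had r = 0.80 and Dlx5 0.79 over the 12 mice, and 0.92 and 0.75 after the group means were taken off. Without the 2 mice farthest from the median of the gene, r was 0.31 for Sp7 and 0.50 for Dlx5, so much of each rests on those mice. Such an r was not particular to osteoblasts. After the group means were taken off, Dlx5 had r = 0.83 with summed osteocyte, 0.78 with adipocyte and 0.77 with chondrocyte markers. On this scale Sp7 had 0.77 with osteocyte, 0.71 with chondrocyte, 0.68 with marrow stromal and 0.64 with adipocyte markers. With macrophage markers r was -0.76 for Dlx5 and -0.74 for Sp7. Runx2 had r = 0.68 with the osteoblast marker sum over the 12 mice and 0.61 without its 2 farthest. After the group means were taken off, r was 0.38. The young AL mice, highest in Runx2, included the highest marker sum, that of mouse 9. Aged AL mouse 13 lay above young AL mice 10 and 11 in this sum. The part of osteoblast content in the levels of Runx2, Dlx5 and Sp7 was not tested. Cbfb had r = 0.20 with the marker sum over the 12 mice and -0.45 after the group means were taken off, so the sign turned.

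**Figure D5:**
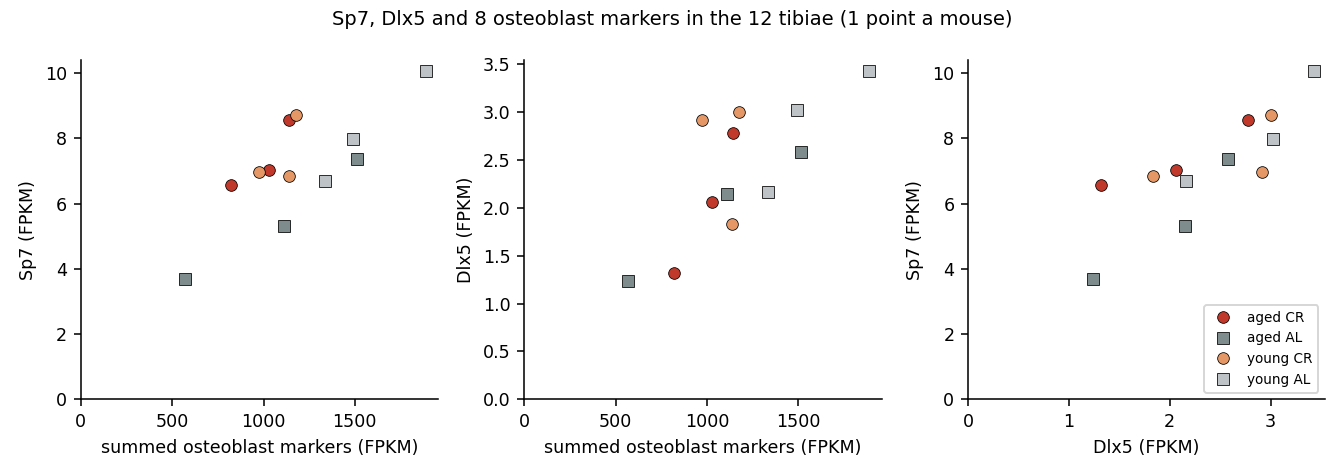
Sp7 and Dlx5 (FPKM) against the summed FPKM of 8 osteoblast markers, and Sp7 against Dlx5, with 1 point for each mouse and linear axes from 0. Aged AL mouse 14, at 3.68 FPKM of Sp7 and 569 FPKM of markers, lies lowest, and young AL mouse 9, at 10.1 and 1889 FPKM, highest.

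Other cell types were read from lists of markers. Blood dominated the tissue, with summed neutrophil markers of 31220 to 42005 FPKM in aged CR mice, 29339 to 43770 in aged AL, 43975 to 47720 in young CR and 41897 to 46141 in young AL mice. B cell markers ranged from 832 to 5232 FPKM in aged CR mice and 1827 to 4751 in aged AL mice. In young mice they ranged from 372 to 415 FPKM under CR and 547 to 1653 under AL, and all 7 B cell markers had a negative difference for CR over both ages. None of the 7 was called for CR by limma, with 2 at an unadjusted p under 0.05 over both ages. Markers of T and NK cells, in which Runx3 is at work, spanned 81.8 to 90.9 FPKM in aged CR, 67.7 to 95.7 in aged AL, 78.7 to 86.0 in young CR and 69.0 to 85.8 in young AL mice. Chondrocyte markers were at 29.7 to 37.1 FPKM in aged CR and 21.9 to 43.5 in aged AL mice, against 71.5 to 95 in young CR and 66.3 to 92.3 in young AL mice, and 5 of the 6 tested were called lower with age. Adipocyte markers were at 407 to 632 FPKM in aged CR mice, against 223 to 394 in aged AL mice. They were at 428 to 553 FPKM in young CR mice, against 239 to 270 in young AL mice, and 2 of 5 were called higher for CR over both ages. With the adipocyte sum Cbfb had r = -0.82 over the 12 mice and -0.27 after the group means were taken off. Megakaryocyte markers, from the cells that shed platelets, were at 1426 to 2186 FPKM in aged CR mice, against 1185 to 1803 in aged AL mice. They were at 798 to 995 FPKM in young CR mice, against 1226 to 1428 in young AL mice, where all 6 differences for CR were below 0. In aged mice all 6 were above 0. Runx1 had r = 0.40 with this sum over the 12 mice and 0.54 after the group means were taken off. Osteoclast markers were at 538 to 984 FPKM in aged CR and 490 to 617 in aged AL mice, and at 699 to 836 in young CR and 523 to 673 in young AL mice. Macrophage markers were at 643 to 791 FPKM in aged CR and 464 to 723 in aged AL mice, and at 486 to 564 in young CR and 392.5 to 525 in young AL mice. All 5 tested osteoclast and all 6 macrophage markers had a positive difference for CR over both ages. By limma 0 megakaryocyte, osteoclast and macrophage markers were called for CR over both ages, with 0, 4 and 3 at an unadjusted p under 0.05. Cbfb had r = -0.58 with the osteoclast and -0.56 with the macrophage sum over the 12 mice, and 0.14 and 0.18 after the group means were taken off. Below a mean of 1 FPKM were the osteocyte markers Fgf23 and Pdpn, the chondrocyte factor Sox9, the adipocyte hormone Lep and the osteoclast genes Calcr and Ocstamp. The part of these cell types in the levels of the 6 members was not tested.

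The genes around the 6 factors were counted in 9 lists, and none of their 116 tested genes was called for CR by limma, at either age or over both. Without aged CR mouse 5, 5 of them were called for CR over both ages, all higher, and without aged AL mouse 14, 7 were called over both ages, all lower, and 1 in young mice. With a quality weight per mouse 15 were called over both ages, 2 in aged and 2 in young mice. An unadjusted p under 0.05 was reached by 7.76% of the list genes in aged mice (9 genes), by 8.62% in young mice (10 genes) and by 14.7% over both ages (17 genes). Of all tested genes 7.72% reached it in aged mice, 11% in young mice and 13.9% over both ages, so for CR the lists lay near the background. For aged against young mice it was reached by 28.45% of the list genes (33 genes), against 16.56% of all tested genes. What lies behind this larger share was not tested. Corepressors of Runx proteins had 10 of 12 genes tested, and over both ages 7 were below 0 with a median log2 difference of -0.06, against 0.00 for all tested genes. Hdac4, a deacetylase that binds Runx2 and holds back chondrocyte hypertrophy, was at 1.44 ± 0.10 FPKM in aged CR and 1.88 ± 0.18 in aged AL mice, and its difference over both ages was -0.25 (limma adjusted p = 0.173). Sin3a, a scaffold of deacetylase complexes, had -0.15 (adjusted p = 0.315, limma) and Cbfa2t2, an ETO-family corepressor, -0.12 (adjusted p = 0.418, limma). Runx1t1 and Zfp521 were below 1 FPKM.

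Coactivators, 11 of 11 tested, had 7 genes below 0 and a median of -0.01 over both ages. Smad1, which carries BMP signals, had a difference of -0.19 (limma adjusted p = 0.352), and the acetyltransferase gene Kat6b had -0.15 (adjusted p = 0.478). Antagonists and ubiquitin ligases, 7 of 9 tested, had a median of 0.06. Among them Twist1, which blocks the DNA binding of Runx2, had -0.26 (limma adjusted p = 0.441). The ligase gene Smurf1, whose product marks Runx2 for degradation, had -0.10 (adjusted p = 0.551), and Wwp1, a ligase of the same family, 0.06 (adjusted p = 0.635). Twist2 and Hey2 were below 1 FPKM.

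Other skeletal transcription factors were mostly scarce, with 12 of 25 tested. The homeobox gene Dlx2 was listed at 0 in all 12 mice, Msx2 in 7 and Dlx1 in 3, and Dlx3 averaged 0.958 FPKM, so Dlx5 was measured above these relatives. The AP-1 gene Fosl1 was listed at 0 in 8 mice. Over both ages Tcf7, a partner of beta-catenin, had a difference of 0.38 (limma adjusted p = 0.308), Sox4 -0.31 (adjusted p = 0.309) and Ebf1, a factor of B cells and marrow stroma, -0.34 (adjusted p = 0.34). Ebf1 was at 2.69 ± 0.024 FPKM in young CR mice, against 4.63 ± 0.29 in young AL mice, and its groups overlapped in aged mice.

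BMP ligands, receptors and signal carriers, the inputs to Dlx5 and Runx2, had 15 of 21 genes tested. Bmpr1a, a type I BMP receptor, rose with age, at 2.6 ± 0.24 FPKM in aged CR, 2.68 ± 0.12 in aged AL, 1.89 ± 0.061 in young CR and 1.83 ± 0.20 in young AL mice. Its log2 difference between aged and young mice was 0.35 (SE 0.06, limma adjusted p = 0.0344), and no gene of this list was called without aged CR mouse 7, aged AL mice 13 or 15, young CR mice 1 or 2, or any 1 young AL mouse. For CR over both ages Id2, a BMP-induced inhibitor of helix-loop-helix factors, had 0.18 (limma adjusted p = 0.368), and the ligand genes Bmp4 and Bmp2 had -0.29 (adjusted p = 0.434) and 0.26 (adjusted p = 0.442). The receptor gene Bmpr1b was listed at 0 in 3 mice, and Bmp7, Nog and Chrd were below 1 FPKM.

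Targets of Runx2 and Sp7 in osteoblasts and hypertrophic chondrocytes had 21 of 22 genes tested. For aged against young mice 19 of the 21 were below 0, with a median of -0.27, against -0.02 for all tested genes, and 1 was called. The median was -0.14 with 16 of 21 below 0 without aged CR mouse 5, and -0.11 with 12 of 21 below 0 under a quality weight per mouse. The called gene was Col10a1, the collagen of hypertrophic cartilage and a direct Runx2 target, which fell to 0.902 ± 0.027 FPKM in aged CR and 1.19 ± 0.70 in aged AL mice, against 5.91 ± 1.52 in young CR and 8.02 ± 1.66 in young AL mice. Its log2 difference was -1.95 (SE 0.16, limma adjusted p = 0.000235), and it is also one of the chondrocyte markers whose sum was lower with age. For CR over both ages the median of the list was 0.06, with 13 of 21 above 0. Vdr, the vitamin D receptor gene, was at 4.82 ± 1.38 FPKM in aged CR and 3.01 ± 0.85 in aged AL mice, and at 5.26 ± 0.94 in young CR and 2.94 ± 0.55 in young AL mice. Its difference over both ages was 0.60 (SE 0.14, limma adjusted p = 0.097), short of the threshold. Ank, a pyrophosphate transporter gene, had 0.25 (limma adjusted p = 0.293). Bglap3, an osteocalcin paralog whose reads can be shared with near-identical copies, had -0.71 (adjusted p = 0.345).

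Blood targets of Runx1 and Cbfb, 18 of 20 tested, had a median of 0.04 for CR over both ages. Cebpa, a myeloid and fat cell factor, was at 23.1 ± 1.7 FPKM in young CR and 15.3 ± 2.1 in young AL mice. The aged groups overlapped, at 21.3 ± 3.0 FPKM under CR and 18.7 ± 0.89 under AL. The difference of Cebpa over both ages was 0.37 (SE 0.08, limma adjusted p = 0.0844). The recombinase gene Rag1 had -0.83 (adjusted p = 0.215, limma) and the B cell kinase gene Blk -0.59 (adjusted p = 0.273, limma), and the summed B cell markers were lower in young CR than in young AL mice. Csf2 was listed at 0 in 4 mice. Targets of Runx3 in T and NK cells had 7 of 13 tested, with a median of 0.07. Il2rb, a cytokine receptor subunit, had 0.31 (limma adjusted p = 0.149), and the coreceptor genes Cd8b1 and Cd8a, which Runx3 turns on in killer T cells, had 0.76 (adjusted p = 0.224) and 0.48 (adjusted p = 0.332). Blood factors that work with Runx1, 15 of 16 tested, had a median of -0.02. Myb had -0.30 (limma adjusted p = 0.257), Meis1 0.19 (adjusted p = 0.431) and Ets1 -0.17 (adjusted p = 0.467). The difference of Meis1 was 0.45 in aged and -0.08 in young mice.

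Last, the genes most like each member were sought as the highest r with it over the 12 mice after the group means were taken off. Each r is given first on that scale and then over the mice as they stand, and all rest on 12 points from one tissue. For Cbfb these were Rnf144a (0.95 and 0.56), Cog6 (0.94 and 0.56) and Map2k1 (0.94 and 0.28). For Runx1 they were Uhrf1bp1l (0.95 and 0.66), Hbb-bh2 (0.93 and 0.36) and Smad4 (0.93 and 0.73), the last of them the common BMP signal carrier from the list above. For Runx2 they were Zfp760 (0.92 and 0.96), Ythdc1 (0.91 and 0.12) and Gm24865 (0.89 and 0.82), and for Runx3 Mars (0.95 and 0.80), Hspa8 (0.94 and 0.56) and Gm15459 (0.94 and 0.50). For Dlx5 they were Ccdc80 (0.97 and 0.68), Pcsk6 (0.97 and 0.83) and Aifm2 (0.96 and 0.60). Sp7 was followed most closely by Fkbp10 (0.94 and 0.93), a collagen chaperone, Col5a2 (0.94 and 0.89), a fibrillar collagen chain, and Cgref1 (0.94 and 0.92). The neighbours of Sp7 kept a high r on both scales, as did Zfp760 and Gm24865 beside Runx2, Pcsk6 beside Dlx5 and Mars beside Runx3. Map2k1 beside Cbfb and Ythdc1 beside Runx2 did not.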

How the data were processed

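RNA of whole tibiae from 12 male mice was sequenced, 3 per group. There are 48 labelled libraries, as each mouse has 4 technical repeats. The matrix holds 1 column for each mouse, and the way the repeats were joined is not given in the sources. From stranded mRNA libraries the authors computed FPKM with StringTie 2.1.3b after trimming (Trim Galore 0.5.0) and alignment to mm10 (STAR 2.6.1), and deposited the quantile-normalized values. Since all mice were thereby set to a common distribution, a shift shared by all genes cannot be seen. No read counts entered the work. The depth per mouse is thus unknown, and the errors given are the spread between mice.

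FPKM were transformed as log2(FPKM + 1), with a pseudocount of 1. A gene was tested if its mean over the mice reached 1 FPKM. A linear model of the 4 groups was fitted with limma 3.58.1 under R 4.3.3, with a prior variance that follows the mean. P-values were Benjamini-Hochberg adjusted over all 13590 genes within each comparison, and a gene was called under 0.05. With 3 mice against 3 the smallest exact permutation p is 0.1, so limma's p-values rest on its variance model. Positions come from GENCODE M21 on GRCm38 and promoter windows from RefSeq on GRCm38, and the authors' own annotation is not given in the sources.

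The members and gene lists were chosen with earlier results of these data known. All 6 members are named with every mouse. Of each pathway list, every called gene and the 3 genes with the smallest p for CR over both ages are named, and of each cell type list the markers at 0 or under 1 FPKM. For each member the 3 genes with the highest r are named. The values of 1 gene that this rule takes from the lists are not reported here. The alternatives were a pseudocount of 0.1, no filter, size-factor scaling, a quality weight for each mouse, leaving out single mice, a model of just the 2 groups at hand and the unequal-variance test on FPKM that the study used.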

Additional observations from a re-analysis of the deposited data

How the results depend on the processing

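Of 450 member differences under the alternatives, 448 moved by less than the SD between mice of a group, which is a wide margin for differences as small as most of these. The exceptions were Sp7 under a quality weight per mouse, at 0.11 for CR in aged mice and 0.19 for the interaction. The differences of Cbfb, Runx1 and Runx2 for CR, and those of all 6 members for age, kept their sign under each of the 15 alternatives that gave them. For CR over both ages the sign of Runx3 changed under 7 of 15 and that of Dlx5 under 4 of 15. Leaving out 1 mouse gave -0.16 to 0.21 for Dlx5, 0.20 to 0.62 for Sp7 and -0.11 to -0.03 for Runx2 in aged mice, and -0.18 to -0.05 for Runx1 in young mice.

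The numbers of called genes depended on the setting. For CR in young mice, 9 genes in the report, there were 5 without a filter, 304 with a quality weight per mouse, 74 in a fit of only the 2 groups and 0 by the unequal-variance test on FPKM (1175 at an unadjusted p under 0.05). For CR in aged mice, 0 in the report, there were 1 without a filter and 193 with weights. For CR over both ages the number was 9 without a filter and 923 with weights, for age 44 and 1798, and for the interaction 1 with weights. Leaving out 1 mouse gave 0 to 43 genes in young mice, 0 to 7 in aged mice, 8 to 223 over both ages, 21 to 219 for age and 0 to 1 for the interaction. The largest numbers came without aged AL mouse 14 in young mice, without aged CR mouse 5 in aged mice and over both ages, and without young CR mouse 3 for age. The cause was not tested. Of 720 list counts, 671 stayed within 1.5 times the reported count. Most of these counts were 0 in the report, so this says little about stability. Under a quality weight per mouse the list calls went from 0 to 15 for CR over both ages and from 2 to 28 for age.

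No paired analysis was possible because the mouse numbers in the labels differ between the groups, and the technical repeat numbers that they share have no columns of their own. Without counts, the precision of single values cannot be given.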
